A study of Rattus norvegicus with 18 samples.

Results

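The mitochondrial ribosomal protein genes of the rat were followed in perinatal lung, in RNA of large polysomes and in total RNA. A gene was taken as a member where its symbol was Mrpl or Mrps followed by a number and where a probe set was annotated to that gene alone. This gave 73 of 14217 genes and 97 of 31042 probe sets. The symbols place 46 members in the large and 27 in the small subunit, and by the ribosomal protein nomenclature 42 have a bacterial counterpart while 31 are specific to mitochondria. Of the 97 probe sets, 90 passed the filter on low signal (above 40.8 on at least 3 arrays), and all 73 genes kept at least 1. Where a gene kept several probe sets, the brightest stood for it.

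Mitochondria carry their own ribosomes, which translate the few proteins encoded by mitochondrial DNA, all of them parts of the oxidative phosphorylation machinery. The ribosomal RNAs come from mitochondrial DNA, whereas every protein of these ribosomes is encoded in the nucleus, translated by cytosolic ribosomes and imported. An mRNA that carries many ribosomes sediments with large polysomes, so the ratio of polysomal to total signal is a relative measure of how much of an mRNA was in such polysomes. It reflects the number of ribosomes per mRNA and not their density, and the length of the coding sequence was not taken into account. The mRNAs of cytosolic ribosomal proteins are known for a 5-prime terminal oligopyrimidine (TOP) motif, a C at the cap followed by a run of pyrimidines, through which their translation is controlled together, and mitochondrial ribosomal protein mRNAs are not known as a TOP family.

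The lungs came from untreated Wistar rats at 3 stages: fetal day 19 (FD19), labelled as canalicular lung, fetal day 22 (FD22), labelled as prenatal saccular lung, and postnatal day 1 (P1), 5 h after birth, labelled as postnatal saccular lung. Each stage had 3 litters, and each litter gave a lysate from which RNA of large polysomes (more than 7 ribosomes per mRNA, from a sucrose gradient) and total RNA were prepared, so that 9 lysates gave 18 Affymetrix arrays, 3 in each of 6 groups. Fetuses were delivered by Caesarean section and newborns vaginally, so the effects of birth, of breathing air and of the delivery route cannot be told apart. The lung was analysed whole, and fewer cells of a type and less RNA per cell cannot be told apart either.

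All 18 deposited arrays shared a trimmed mean, and the array medians lay between 51.6 and 73.5. Of 11 listed lung markers, 10 were tested, among them the surfactant protein genes, and their summed signal in total RNA ranged over 17138.3 to 18623.7 at FD19, 28607.6 to 34999.8 at FD22 and 30023.9 to 33420.4 at P1. The FD22 lysate of replicate 2 stood apart. Its polysomal and total arrays gave signals of 4891.5 and 5662.0 for the albumin gene Alb, 1443.4 and 1461.8 for Afp and 796.7 and 643.1 for Ttr, all typical of liver. On the other 16 arrays Alb ranged from 31.6 to 147.0, Afp from 0.9 to 51.2 and Ttr from 31.3 to 127.3. Counts that rest on FD22 are therefore also given without this lysate.

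The annotated starts of the mRNAs were compared first, because the TOP motif separates the mRNAs of both kinds of ribosome. Start and promoter sequences were those of RefSeq on the build GRCr8, which held 59 of the 73 members, 35 of 41 cytosolic ribosomal protein genes and 9592 of the 11590 genes tested. A TOP-like start, here a C followed by at least 4 pyrimidines from the annotated base on, was found in 2 of 59 members (3.39%), in 10 of 35 cytosolic ribosomal protein genes (28.6%) and in 258 of 9592 genes (2.69%). When the run could begin within 2 bases of the annotated start, the shares were 8.47% (5 members), 42.9% (15) and 9.00% (863). The members' share was thus near that of all genes under each definition. Annotated starts are approximate, so these shares describe the annotation and not measured mRNA ends.

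The following windows hold the 12 bases before and the 18 bases from the annotated start on, with a TOP-like run in capitals. Shown are Mrps27, Mrpl12 and Mrpl49, which had large changes between stages, Mrps31, Mrpl41 and Mrpl33, from both ends of the polysomal to total ratio, and both members that have such a run, followed by 4 cytosolic ribosomal protein genes as a contrast. Their positions on GRCr8 are chr2:32474192-32474221 (+) for Mrps27, chr10:106256734-106256763 (+) for Mrpl12, chr1:212779310-212779339 (-) for Mrpl49, chr16:76324048-76324077 (-) for Mrps31, chr3:28179738-28179767 (-) for Mrpl41, chr6:30553970-30553999 (-) for Mrpl33, chr8:27815759-27815788 (+) for Mrpl4 and chr3:135274321-135274350 (+) for Mrps5. Those of the contrast are chr8:129163608-129163637 (+) for Rpl14, chr10:83519052-83519081 (+) for Rpl19, chr5:168117949-168117978 (+) for Rpl22 and chr2:221962266-221962295 (-) for Rpl34. The annotated start of Mrpl12 lies at an ATG, the bases of a start codon, so it may not be the start of the mRNA. Its window therefore cannot show whether the mRNA has a TOP-like start, although Mrpl12 is counted among the members without such a run.
Mrps27: tgtgcctgacccccggggcggcggtccatt
Mrpl12: cgagacaaaggcatgccgcggagggctgca
Mrpl49: cgcgcagatgtcactcattggaggagcaaa
Mrps31: gtgcgcgtctttgagtttgtgtttccggtt
Mrpl41: accccgcctatggtcggaatcgctgtgggg
Mrpl33: gccccggaagcagttgttgagctctttcgg
Mrpl4: ttcattggtttgCTTCCggagcccgctctc
Mrps5: cctgactcagttCCCTCTgtggtccacatg
Rpl14: cgggccctctccCTTCTCgctgagcgccgc
Rpl19: gaccagcaagctCTTTCCTTTCgctgctgc
Rpl22: gtgcgcccccctCCCTTTCTgcctcctctg
Rpl34: cttccttttcctCTTCCggggacggtgctt

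Promoters were searched from 250 bases before to 50 bases after the start, on both strands, for 3 motifs of factors known to drive nuclear genes of mitochondrial proteins. The core of ETS factors such as GABP (CCGGAAG) was present in 33.9% of members, 22.9% of cytosolic ribosomal protein genes and 17.2% of all genes. The YY1 core (AAGATGGC) was present in 23.7%, 11.4% and 5.44%, and the core of nuclear respiratory factor NRF1 (GCGCA, any base, GCGC) in 15.3%, 8.57% and 9.74%. At least 1 of the 3 motifs was present in 33 of 59 members (55.9%), against 28.2% of all genes. The ETS and YY1 cores overlapped in none of the 59 members. A match of letters is a description and not a binding site. The 150 bases before the annotated start are shown for 3 members that hold an ETS core, in capitals, and that lie at different ends of the results: Mrps27, with the largest change of total RNA between FD19 and P1, Mrps31, with the highest polysomal to total ratio, and Mrpl33, with the lowest. They are chr2:32474054-32474203 (+), chr16:76324066-76324215 (-) and chr6:30553988-30554137 (-) on GRCr8.
Mrps27: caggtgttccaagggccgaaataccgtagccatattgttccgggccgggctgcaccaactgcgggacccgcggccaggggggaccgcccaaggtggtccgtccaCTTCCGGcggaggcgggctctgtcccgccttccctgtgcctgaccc
Mrps31: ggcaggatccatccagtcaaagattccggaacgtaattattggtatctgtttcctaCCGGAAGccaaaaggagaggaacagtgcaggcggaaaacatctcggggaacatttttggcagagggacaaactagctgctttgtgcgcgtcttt
Mrpl33: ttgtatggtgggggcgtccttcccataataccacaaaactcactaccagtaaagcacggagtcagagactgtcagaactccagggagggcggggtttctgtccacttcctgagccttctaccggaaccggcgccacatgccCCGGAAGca
An ETS core is thus found in members of high and of low ratio. The 20 members with an ETS core had a median mean ratio of 0.21 on the log2 scale and the 39 without it 0.35, and the medians of the change in total RNA at P1 relative to FD19 were −0.33 and −0.52. The median mean ratios ran the other way for the YY1 core (0.35 in 14 members with it, 0.21 in 45 without) and for the NRF1 core (0.27 in 9 with it, 0.22 in 50 without). For the change in total RNA they were −0.44 and −0.46 (YY1) and −0.52 and −0.45 (NRF1). These medians are given as a description, with no test.

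All members were measured well above the dimmest probe sets. Their mean signal in total RNA ranged from 95.5 for Mrps31 to 1012.7 for Mrpl18. Besides Mrpl18, a counterpart of bacterial L18, the brightest were Mrpl43 (951.4) and Mrpl23 (748.8), which encodes a counterpart of bacterial L23 at the tunnel exit. Besides Mrps31 the dimmest were Mrps27 (97.1) and Mrpl38 (100.2). Probe sets differ in response, so these signals do not order the genes by abundance.

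The family as a whole was highest at FD19 in both fractions. The median signal of the 73 members on single polysomal arrays ranged over 343.4 to 392.4 at FD19, 231.9 to 321.0 at FD22 and 237.7 to 270.9 at P1. On total RNA arrays it ranged over 306.1 to 318.8 at FD19, 234.3 to 256.3 at FD22 and 203.4 to 248.2 at P1. In each fraction every FD19 array lay above every FD22 and P1 array, whereas FD22 and P1 arrays overlapped. Within a stage the highest polysomal array lay above every total array, and the groups overlapped at FD22 and at P1.

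**Figure D1:**
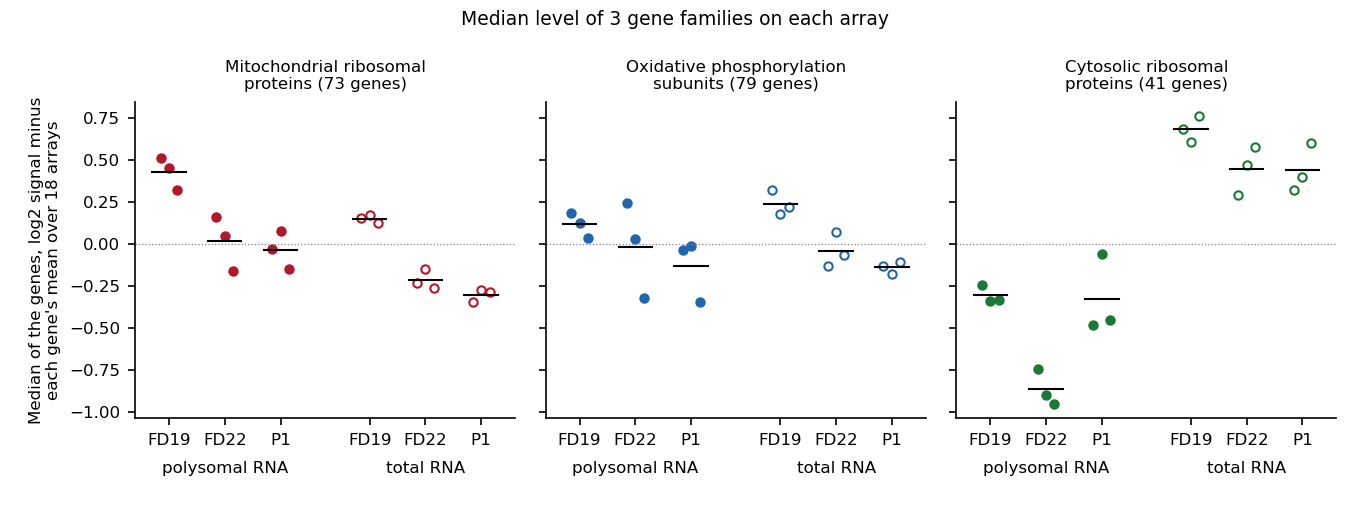
Median over the genes of a family of log2 signal minus each gene's mean over 18 arrays, for 73 mitochondrial ribosomal protein, 79 oxidative phosphorylation and 41 cytosolic ribosomal protein genes, on polysomal arrays (filled, left) and total RNA arrays (open, right) of FD19, FD22 and P1 (3 points each, line at their mean). The mitochondrial ribosomal family is highest at FD19 and higher in polysomal than in total RNA at each stage by the mean, while the cytosolic family is lower in the polysomal than in the total RNA of every lysate.

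The stages were compared to follow the family through late gestation and birth. In total RNA at FD22 relative to FD19, 22 of the 73 members fell and none rose (limma, Benjamini-Hochberg adjusted p under 0.05, called from here on), and 70 had a negative log2 change, against 50.7% of all genes, with a median of −0.40. Of all 11590 genes tested, 10.4% were called lower and 9.68% higher, with a median of −0.01. The 3 arrays of FD22 all lay below the 3 of FD19 for 51 members, against 21.2% of all genes. The other 3 members, Mrpl1, Mrpl34 and Mrpl40, had positive changes up to 0.58 and were not called. The value of 0.58 was that of Mrpl40, whose other kept probe set gave −0.26. Without the FD22 lysate of replicate 2 the count was 21 lower and none higher (9.45% and 8.58% of all genes). The count was sensitive to the FD19 lysates: it was 10 without replicate 1, and 10 lower with 1 higher without replicate 2. It was 13 without FD19 replicate 3, 14 without FD22 replicate 3, and 14 lower with 1 higher without FD22 replicate 1. In these 5 fits 6.48% to 8.84% of all genes were called lower.

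Mrps27, a pentatricopeptide repeat protein of the small subunit, had the largest change in total RNA over the whole interval. Its signals in polysomal RNA were 197.6, 153.6 and 170.9 at FD19, 100.7, 84.0 and 79.3 at FD22, and 91.6, 97.4 and 90.5 at P1. In total RNA they were 176.1, 149.8 and 150.2 at FD19, 66.8, 90.9 and 64.4 at FD22, and 66.3, 38.4 and 71.1 at P1. In each fraction the FD19 arrays stood above all others, and FD22 and P1 overlapped. The log2 change in total RNA was −1.06 ± 0.20 (SE, adjusted p = 0.000919) at FD22 relative to FD19 and −1.39 ± 0.20 (adjusted p = 2.96e-05) at P1 relative to FD19. A dimmer probe set of Mrps27 gave −0.27 at FD22 relative to FD19, not called, and −0.68 at P1 relative to FD19, called.

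Mrps15, a counterpart of bacterial S15, behaved alike in total RNA, with signals of 389.1, 306.0 and 306.1 at FD19, 180.6, 158.9 and 122.2 at FD22, and 161.7, 160.3 and 164.8 at P1. The lowest FD19 array was above the highest of the later stages. Its log2 change at FD22 relative to FD19 was −1.10 ± 0.22 (limma adjusted p = 0.00164). Mrpl12, the counterpart of the bacterial L7/L12 stalk protein, which in human cells also binds the mitochondrial RNA polymerase, fell by 0.82 on the log2 scale (SE 0.18, adjusted p = 0.00406). Its total RNA signals were 499.7, 543.5 and 503.8 at FD19, 255.8, 338.5 and 278.4 at FD22, and 261.3, 372.4 and 307.9 at P1, so that the later stages overlapped each other and stayed below FD19. A second, dimmer probe set of Mrpl12 gave −0.18 at FD22 relative to FD19 (limma adjusted p = 0.722), not called.

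Other members that fell in total RNA at FD22 were Mrpl32 (−0.69 ± 0.13, limma adjusted p = 0.00142), whose protein is matured by the m-AAA protease of the inner membrane, Mrpl37 (−0.68 ± 0.17) and Mrps5 (−0.67 ± 0.15). Mrps12, the counterpart of S12 at the decoding centre, fell by 0.51 (SE 0.16, adjusted p = 0.0355). The calls of Mrpl35 (−0.72, adjusted p = 0.0429) and Mrpl23 (−0.64, adjusted p = 0.0382) were lost without any of 7 and of 5 of the 9 lysates, with adjusted p up to 0.133 and 0.103. The calls of Mrps27, Mrps15, Mrpl12, Mrpl32, Mrpl37 and Mrps5 were kept whichever lysate was left out.

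Markers of cell types and of dividing cells moved over the same interval. In total RNA all 27 cell cycle genes tested were called lower at FD22 than at FD19, with a median log2 change of −1.26. Their summed signal ranged over 15130.8 to 15622.2 at FD19, 5231.6 to 7981.1 at FD22 and 4270.9 to 4554.0 at P1. All 11 leukocyte markers were called higher at FD22, with sums of 2793.4 to 3064.0 at FD19, 8007.1 to 11696.6 at FD22 and 8815.0 to 10038.5 at P1. Of 11 erythroid genes, 5 were called lower at FD22, with sums of 14153.6 to 15087.1 at FD19, 9281.8 to 13999.7 at FD22 and 9428.7 to 13008.8 at P1. The genes of this sum moved differently. The mean total RNA signals of Hbe1 were 2916.9 at FD19, 586.8 at FD22 and 228.9 at P1. Those of Hbb were 7366.4, 7463.4 and 6938.0, and those of Alas2 were 1608.5, 2028.0 and 2524.9. None of 13 heart and skeletal muscle genes was called by limma, with 0 at an unadjusted p under 0.05, and their sums spread over 2024.3 to 5375.0 at FD19, 1505.3 to 4522.0 at FD22 and 1435.9 to 2698.2 at P1. The part of these cells in the members' change was not tested.

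Across birth the family changed little in total RNA. At P1 relative to FD22 no member was called by limma, against 2.62% of all genes called higher and 2.32% lower, and 11 members had an unadjusted p under 0.05 (4 higher and 7 lower), against 19.7% of all genes. The median log2 change was −0.09, that of all genes −0.05. Without the FD22 lysate of replicate 2 no member was called either. Mrpl18 came closest. Its total RNA signals were 1359.2, 1359.0 and 1442.2 at FD19, 875.9, 1157.9 and 883.8 at FD22, and 528.3, 747.4 and 760.8 at P1, without overlap between any stages. Its log2 change at P1 relative to FD22 was −0.52 ± 0.15 (limma adjusted p = 0.0645). Mrpl49, a member specific to mitochondria, had −0.56 ± 0.19 (adjusted p = 0.119), Mrpl3 had 0.48 ± 0.17 (adjusted p = 0.144) and Mrps34 had 0.39 ± 0.14 (adjusted p = 0.153).

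Over the whole interval, at P1 relative to FD19, 33 of 73 members fell in total RNA and none rose, against 17.2% and 13.8% of all genes. The median change was −0.46 (all genes −0.06), 68 members had a negative value (54.7% of all genes), and the P1 arrays lay below all FD19 arrays for 54 members, against 27.1% of all genes. The 5 positive members, Mrpl1, Mrpl3, Mrpl40, Mrpl46 and Mrpl57, were not called. The other kept probe sets of Mrpl40 (−0.22) and Mrpl57 (−0.28) were negative, also not called. After Mrps27 the lowest changes were those of Mrpl49 (−1.11), Mrpl18 (−1.04), Mrps15 (−1.01), Mrpl32 (−0.98 ± 0.13, limma adjusted p = 2.21e-05), Mrps21 (−0.93), Mrpl13 (−0.91) and Mrps11 (−0.90). Only 4 members fell by more than 2-fold. The calls of these 8 members were kept without any single lysate.

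Decline in total RNA was not limited to a subunit or an origin. At P1 relative to FD19, where 17.2% of all genes were called lower, 21 of 46 large subunit members fell (median −0.43). Of 27 small subunit members 12 fell (median −0.47). Of 42 members with a bacterial counterpart 22 fell (median −0.49), and of 31 specific to mitochondria 11 fell (median −0.39). The differences between these subgroups were not tested. The split by symbol counts Mrps18a and Mrps30 as small subunit members, although known structures place their proteins in the large subunit.

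In polysomal RNA the sizes were similar. At FD22 relative to FD19, 22 members fell and none rose, against 9.56% and 10.1% of all genes, and the median was −0.38 (all genes −0.02). The FD22 arrays lay below all FD19 arrays for 41 members, against 19.1% of all genes. With the replicate number as a block 38 members fell (15% of all genes), although litters differ between stages and share no lysate. Without the FD22 lysate of replicate 2 the count was 18 (8.65%). It was 12 without FD19 replicate 1, 14 without FD19 replicate 2 and 10 without FD22 replicate 3, where 6.22%, 5.19% and 6.85% of all genes were called lower. Mrps9, a counterpart of bacterial S9, had polysomal signals of 392.4, 410.5 and 369.1 at FD19, 205.8, 222.7 and 197.1 at FD22, and 200.9, 271.5 and 249.1 at P1. The FD19 arrays stood apart from both later stages. Its log2 change at FD22 relative to FD19 was −0.89 ± 0.14 (limma adjusted p = 0.000274). In total RNA its signals were 199.1, 186.2 and 219.6 at FD19, 164.6, 186.4 and 149.1 at FD22, and 159.3, 177.2 and 140.2 at P1, where FD22 and FD19 overlapped and no stage comparison was called. The second kept probe set of Mrps9, of similar brightness, was called lower in total RNA too, with −0.50 (adjusted p = 0.0441) at FD22 and −0.79 (adjusted p = 0.00133) at P1, each relative to FD19, and in polysomal RNA with −0.56 (adjusted p = 0.0248) at FD22. The lack of a call in total RNA thus held for 1 of 2 probe sets.

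Mrpl49 fell in both fractions by P1. Its polysomal signals were 488.5, 421.3 and 343.4 at FD19, 239.7, 257.7 and 162.1 at FD22, and 221.0, 210.2 and 159.4 at P1, and in total RNA they were 214.4, 296.4 and 252.0 at FD19, 183.5, 174.2 and 155.9 at FD22, and 105.0, 136.2 and 104.1 at P1. The total RNA groups did not overlap, and the polysomal groups of FD22 and P1 did. The polysomal change at FD22 relative to FD19 was −0.92 ± 0.19 (limma adjusted p = 0.00246). Mrps27 (−0.94), Mrpl19 (−0.83), Mrpl3 (−0.74) and Mrps5 (−0.67) also fell in polysomal RNA and kept their calls without any single lysate. Mrpl12 (−0.76) and Mrpl37 (−0.67) were called too, and lost the call without FD19 replicate 1 or FD22 replicate 3, with adjusted p up to 0.0639 and 0.0754. The dimmer probe set of Mrpl12 gave −0.20, not called.

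At P1 relative to FD22, 6 members fell in polysomal RNA and none rose, against 5.8% and 4.74% of all genes, with a median of −0.10 (all genes −0.03). The split depended on the scaling: it was 3 higher and 4 lower after centring each array on its median (5.47% and 3.8% of all genes), and 2 higher and 4 lower after quantile normalization (3.92% and 4.41%). It was 3 lower without the FD22 lysate of replicate 2 (3.27%). Leaving out other lysates gave 1 higher and 1 lower without FD22 replicate 1 (3.26% and 3.53% of all genes). The counts were 9 lower (6.51%) without FD22 replicate 3, 3 lower (3.73%) without P1 replicate 1 and 1 lower (3.58%) without P1 replicate 3. The groups did not overlap for 9 members lower at P1 and 9 higher, where the shares of all genes were 14.5% and 12.1%.

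The 6 members were Mrpl12, Mrpl14, Mrpl34, Mrpl54, Mrps16 and Mrps18a. Mrps18a, 1 of 3 mammalian relatives of bacterial S18, had polysomal signals of 480.0, 363.3 and 354.8 at FD19, 369.2, 289.4 and 268.4 at FD22, and 189.6, 180.9 and 154.4 at P1. In total RNA it had 260.9, 244.8 and 262.2 at FD19, 256.5, 213.4 and 234.3 at FD22, and 179.9, 227.9 and 202.4 at P1. The polysomal P1 arrays lay below all fetal ones, whereas in total RNA P1 and FD22 overlapped. The polysomal change at P1 relative to FD22 was −0.79 ± 0.15 (limma adjusted p = 0.00348), and the call was kept without any single lysate. When the fit held only the compared groups, none of the 6 was called (adjusted p = 0.052 for Mrps18a), against 1.42% of all genes higher and 1.4% lower.

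Mrpl34, a counterpart of bacterial L34, gave polysomal signals of 318.2, 273.4 and 222.9 at FD19, 376.8, 252.0 and 142.0 at FD22, and 127.9, 90.9 and 106.0 at P1, and total RNA signals of 220.7, 252.3 and 306.9 at FD19, 198.1, 297.7 and 322.4 at FD22, and 203.4, 271.0 and 269.5 at P1. The stages overlapped in total RNA, and in polysomal RNA P1 lay below FD22, whose own arrays spread widely. The polysomal change at P1 relative to FD22 was −1.11 ± 0.27 (limma adjusted p = 0.0136), lost without any of 4 lysates (adjusted p up to 0.0701). The calls of Mrpl14 (−0.90, a counterpart of L14), Mrpl12 (−0.78) and Mrps16 (−0.72) were lost without any of 3, 2 and 5 lysates, with adjusted p up to 0.0712, 0.0682 and 0.126. The dimmer probe set of Mrpl12 gave −0.25, not called. Mrpl54 (−0.84, adjusted p = 0.0433) was called although its FD22 signals of 475.5, 308.3 and 201.7 overlapped its P1 signals of 179.9, 206.3 and 133.5.

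At P1 relative to FD19, 34 members fell in polysomal RNA and 1 rose, against 18.7% and 15.6% of all genes, with a median of −0.45 (all genes −0.04). The P1 arrays lay below all FD19 arrays for 51 members, against 27% of all genes. Mrpl12 fell most. Its polysomal signals were 681.3, 529.4 and 446.1 at FD19, 395.1, 334.9 and 245.8 at FD22, and 184.3, 200.4 and 168.8 at P1. The 3 stages did not overlap, and the change at P1 relative to FD19 was −1.54 ± 0.18 (limma adjusted p = 4.76e-06). A second kept probe set of Mrpl12, with a mean signal of 40.7 against 363.7, gave −0.45 (adjusted p = 0.229), not called. It was followed by Mrps16 (−1.35), Mrpl54 (−1.29), Mrpl34 (−1.28), Mrpl14 (−1.17), Mrps18a (−1.16), Mrpl49 (−1.06) and Mrps21 (−1.04), and these 8 calls were kept without any single lysate.

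The member that rose was Mrpl42, specific to mitochondria. Its polysomal signals were 178.8, 140.8 and 137.9 at FD19, 196.6, 149.0 and 107.5 at FD22, and 228.5, 262.6 and 212.5 at P1, with every P1 array above every fetal one. In total RNA it had 367.5, 380.3 and 332.6 at FD19, 253.5, 282.7 and 202.9 at FD22, and 159.1, 204.6 and 255.7 at P1, with P1 below FD19. The change at P1 relative to FD19 was 0.61 ± 0.20 in polysomal RNA (limma adjusted p = 0.0293) and −0.81 ± 0.20 in total RNA (adjusted p = 0.0055). The polysomal call was lost without FD19 replicate 2 (adjusted p = 0.111), FD19 replicate 3 (0.114) or P1 replicate 2 (0.12).

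At P1 relative to FD19, 24 members were called lower in both fractions, against 11.2% of all genes, 9 in total RNA alone, 10 in polysomal RNA alone, and 30 were called lower in neither. A call in a single fraction does not show a difference between fractions, which is tested by the ratio change below. Both fractions come from the same lysates.

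**Figure D2:**
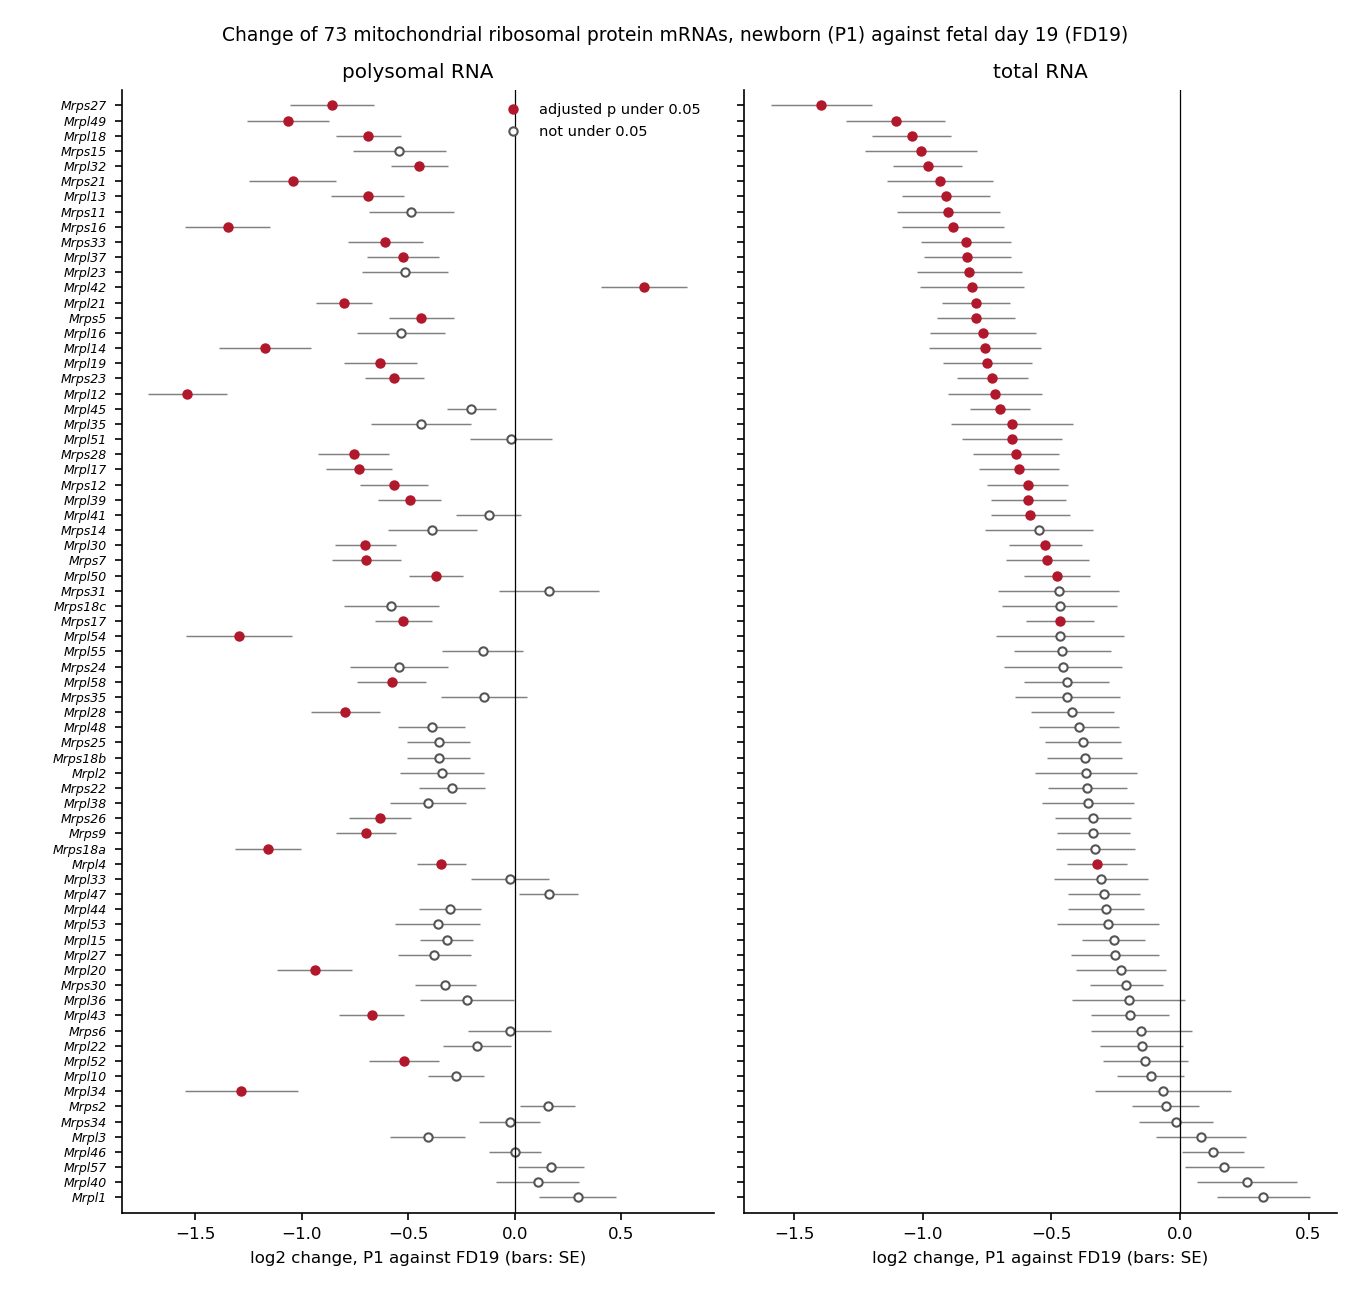
Log2 change at P1 relative to FD19 of the 73 members in polysomal RNA (left) and total RNA (right), with SE bars; filled points have an adjusted p under 0.05, and genes are ordered by the change in total RNA. Most points lie left of 0 in both fractions, 33 of the filled ones in total RNA and 34 in polysomal RNA are decreases, and Mrpl42 is the filled point right of 0 in polysomal RNA.

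The ratio of polysomal to total RNA asks how much of each mRNA was in large polysomes relative to other mRNAs. Averaged over the 3 stages, 39 members had a higher and 10 a lower signal in polysomal than in total RNA, against 25% and 22.2% of all genes. The median log2 ratio of the members was 0.26, where the median of all genes was 0.00. The zero of this scale depends on how the arrays are scaled. The median of all probe sets was −0.09 as deposited, 0.01 after quantile normalization and 0.11 after centring on array medians, and the members' median lay above it by 0.35, 0.25 and 0.35. Relative to that median the members were thus shifted upward under each scaling. After centring on array medians 47 members were called higher and 6 lower, against 41.5% and 10.2% of all genes, and after quantile normalization 39 and 12, against 28.1% and 17.2%.

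By stage the members' median log2 ratio was 0.31 at FD19, 0.24 at FD22 and 0.22 at P1. At FD19 25 members were called higher and 4 lower in polysomal RNA, against 13% and 9.53% of all genes. At FD22 the counts were 21 and 4, against 9.72% and 6.89%, and centring on array medians gave 35 higher and none lower, against 22.4% and 3.06% of all genes in that fit. At P1 they were 29 and 8, against 12% and 8.54%. Without the FD22 lysate of replicate 2 the FD22 counts were 9 higher and none lower (5.46% and 3.89% of all genes), and those of the mean ratio 40 and 8 (23.4% and 20.1%). Leaving out other lysates lowered the counts of higher calls at their own stage together with the shares of all genes called in the same fit. At FD19 they were 14 and 4 without replicate 1 (8.05% and 5.36% of all genes), 13 and 3 without replicate 2 (5.48% and 3.81%) and 13 and 3 without replicate 3 (5.12% and 3.96%). At FD22 they were 9 and 4 without replicate 1 (7.1% and 6.05%) and 13 and none without replicate 3 (4.31% and 2.4%). At P1 they were 15 and 6 without replicate 1 (7.4% and 5.19%), 17 and 5 without replicate 2 (6% and 4.81%) and 22 and 2 without replicate 3 (6.12% and 4.11%).

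In single lysates the median ratio of the 73 members was 0.32, 0.28 and 0.22 at FD19, 0.44, 0.11 and 0.13 at FD22, and 0.28, 0.37 and 0.14 at P1, above 0 in all 9. Over all genes it lay between −0.03 and 0.03. The ratio of 32 members was above 0 in all 9 lysates and that of 6 below 0 in all 9, against 16.5% and 12.3% of all genes, and 35 had mixed signs. At all 3 stages 16 members were called higher in polysomal RNA, against 5.53% of all genes, namely Mrpl4, Mrpl16, Mrpl19, Mrpl21, Mrpl39, Mrpl41, Mrpl45, Mrpl46, Mrpl58, Mrps6, Mrps17, Mrps23, Mrps25, Mrps28, Mrps31 and Mrps34. Mrpl33 and Mrps2 (2 members, against 3.24% of all genes) were called lower at all 3.

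Mrps31, a small subunit protein specific to mitochondria, had the highest ratio. Its polysomal signals were 171.2, 251.9 and 279.3 at FD19, 156.8, 235.6 and 287.8 at FD22, and 284.6, 183.6 and 325.8 at P1. In total RNA they were 135.9, 102.6 and 118.1 at FD19, 76.6, 80.8 and 92.4 at FD22, and 94.2, 89.3 and 69.4 at P1. At each stage every polysomal array lay above every total array. The mean log2 ratio was 1.28 ± 0.14 (limma adjusted p = 6.57e-07), the single member above a 2-fold mean ratio, with 0.93 at FD19, 1.35 at FD22 and 1.56 at P1. The FD19 call was lost without FD19 replicate 2 or replicate 3 (adjusted p up to 0.127).

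Mrpl41, a large subunit protein specific to mitochondria, had polysomal signals of 1056.8, 1079.6 and 1166.4 at FD19, 803.4, 1051.5 and 1010.9 at FD22, and 904.7, 1225.9 and 931.0 at P1. In total RNA they were 540.4, 744.6 and 659.8 at FD19, 433.4, 559.3 and 546.5 at FD22, and 387.4, 449.0 and 449.0 at P1. Again no polysomal array overlapped the total arrays of its stage. The mean log2 ratio was 0.96 ± 0.09 (limma adjusted p = 1.07e-07). In total RNA Mrpl41 fell by 0.58 at P1 relative to FD19 (SE 0.15, adjusted p = 0.00783), and in polysomal RNA the change was −0.12, not called.

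The other 6 members with the highest mean log2 ratios were Mrps6 (0.82), Mrps23 (0.80 ± 0.08, limma adjusted p = 3.53e-07), Mrps28 (0.79), Mrpl58 (0.78), Mrpl16 (0.77) and Mrpl19 (0.74). Mrps6, Mrps28, Mrpl16 and Mrpl19 have bacterial counterparts, and Mrpl58, also known as Ict1, is a peptidyl-tRNA hydrolase that releases stalled chains. Mrps9 had a log2 ratio of 0.94 ± 0.14 at FD19 (adjusted p = 0.000184), 0.32 at FD22 and 0.58 at P1 by its brightest probe set, and 0.62, 0.56 and 0.83 by the other, so that the stage of the highest ratio differed between probe sets. Of 27 small subunit members 17 were called higher and 4 lower in the mean ratio (median 0.34), and of 46 large subunit members 22 and 6 (median 0.18). Of all genes 25% were called higher and 22.2% lower. The difference between subunits was not tested.

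Single stages had further members with high ratios. At FD19 Mrpl58 (0.88), Mrps28 (0.86) and Mrpl28 (0.79) were called and kept without any single lysate, whereas Mrps6 (0.78) and Mrpl3 (0.77) lost the call without FD19 replicate 1 and without FD19 replicate 2 (adjusted p = 0.0968 and 0.0552). At FD22 Mrps23 (0.90) and Mrps25 (0.68) were kept, and Mrps6 (0.77), Mrps28 (0.76), Mrpl58 (0.71) and Mrpl16 (0.70) each lost the call without at least 1 FD22 lysate, with adjusted p up to 0.115. At P1 Mrpl16 (0.93), Mrpl19 (0.89), Mrps11 (0.88), Mrpl45 (0.84) and Mrps23 (0.83) were kept, and Mrps6 (0.91) lost the call without P1 replicate 1 (adjusted p = 0.059).

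Mrpl45 encodes a protein at the tunnel exit that anchors the ribosome at the inner membrane. Its polysomal signals were 590.8, 583.1 and 592.2 at FD19, 411.7, 419.9 and 427.0 at FD22, and 539.2, 514.1 and 479.3 at P1. In total RNA they were 522.2, 401.1 and 476.6 at FD19, 332.4, 295.0 and 304.9 at FD22, and 278.2, 283.2 and 289.1 at P1. Polysomal arrays lay above total arrays at every stage, and the polysomal P1 arrays lay above those of FD22 while the total P1 arrays lay below the total FD22 arrays. At P1 relative to FD22 limma called neither the polysomal change (0.28, adjusted p = 0.154) nor that in total RNA (−0.13, adjusted p = 0.642). The ratio change between these stages was not called either (0.41, adjusted p = 0.942). The ratio at P1 was 0.84 ± 0.12 on the log2 scale (limma adjusted p = 7.4e-05).

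At the other end was Mrpl33, a counterpart of bacterial L33 and a short protein. Its polysomal signals were 313.4, 283.3 and 295.4 at FD19, 390.9, 325.6 and 208.9 at FD22, and 262.0, 335.8 and 283.6 at P1. In total RNA they were 594.3, 645.9 and 548.4 at FD19, 397.9, 567.2 and 405.3 at FD22, and 475.9, 476.2 and 488.1 at P1. At each stage the polysomal arrays lay below the total arrays. The mean log2 ratio was −0.76 ± 0.11 (limma adjusted p = 1.53e-05). The FD22 call was lost without any of 5 lysates and the P1 call without P1 replicate 1 or replicate 3, with adjusted p up to 0.183 and 0.0913.

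Mrps21, a counterpart of bacterial S21, had polysomal signals of 347.4, 288.3 and 252.8 at FD19, 330.0, 223.4 and 152.0 at FD22, and 143.6, 146.5 and 129.7 at P1. Its total RNA signals were 501.7, 459.0 and 523.4 at FD19, 349.2, 407.3 and 274.3 at FD22, and 248.8, 251.8 and 267.9 at P1. The fractions overlapped at FD22 only. The mean log2 ratio was −0.72 ± 0.12 (limma adjusted p = 8.36e-05). At P1 Mrpl54 and Mrpl34 had the lowest ratios, both −1.16, followed by Mrps21 (−0.85), Mrpl43 (−0.84), Mrpl52 (−0.75) and Mrpl12 (−0.74). The dimmer probe set of Mrpl12 gave −0.02 there, not called. The P1 calls of Mrpl54 and Mrps21 were lost without P1 replicate 3 (adjusted p = 0.068 and 0.0838), and those of Mrpl34 and Mrpl12 without P1 replicate 2 or replicate 3 (up to 0.0806 and 0.0815). At FD19 Mrpl42 was lowest (−1.22 ± 0.20, adjusted p = 0.0004). The other members called lower in the mean ratio were Mrpl42 (−0.58), Mrpl43 (−0.57), Mrpl54 (−0.57), Mrpl52 (−0.52), Mrps2 (−0.52), Mrpl34 (−0.42, adjusted p = 0.0319), Mrps18c (−0.41) and Mrps30 (−0.34). The call of Mrpl34 was lost without any of 6 lysates (adjusted p up to 0.126). For Mrps2, a counterpart of bacterial S2, 3 kept probe sets disagreed, with mean ratios from −0.64 to 0.16. Those of Mrpl40, named for the same reason, were −0.08 and 0.73, and those of Mrps27 −0.19 and 0.34.

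**Figure D3:**
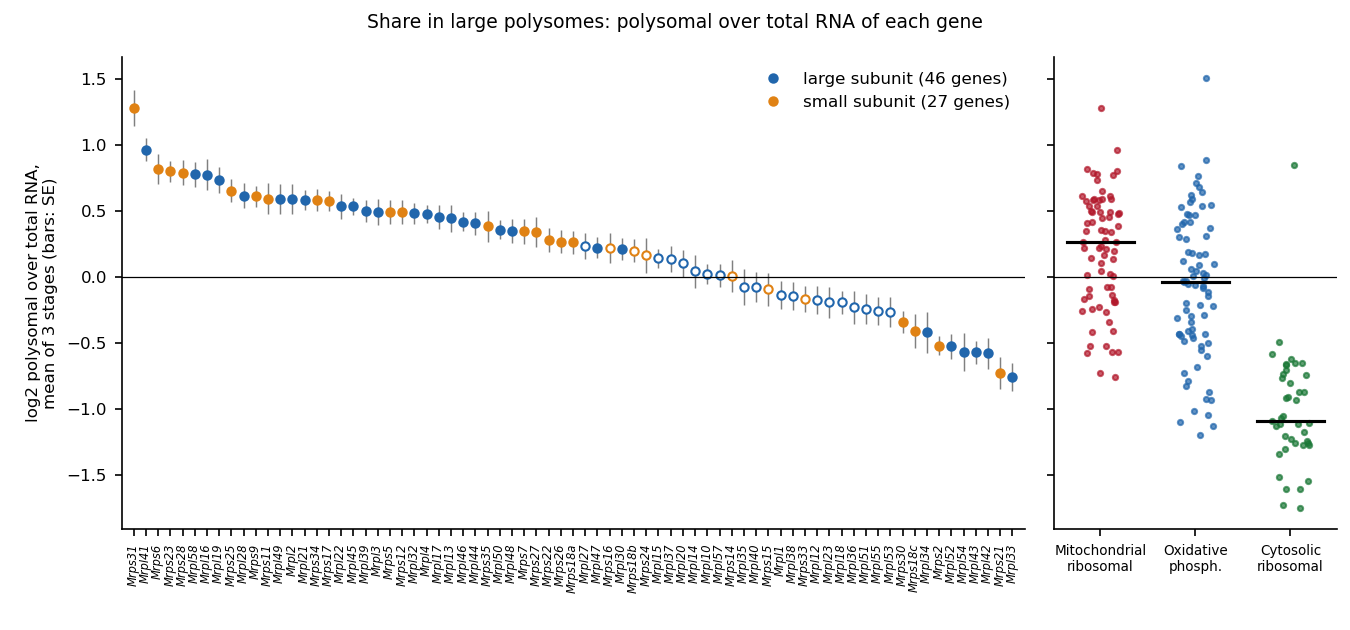
Left, mean log2 ratio of polysomal to total RNA over 3 stages for each of the 73 members, with SE bars, in order, large subunit blue and small subunit orange, filled where the adjusted p is under 0.05. Right, the same ratio for the genes of 3 families with a line at the median: 0.26 for the mitochondrial ribosomal, −0.04 for the oxidative phosphorylation and −1.09 for the cytosolic ribosomal family.

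Whether the ratio itself changed between stages was tested as an interaction. No member was called by limma in any of the 3 ratio changes. Of all genes none was called at FD22 relative to FD19 (0% in each direction). At P1 relative to FD22 0% were called higher and 0.0259% lower, and at P1 relative to FD19 0.00863% and 0.173%. At an unadjusted p under 0.05 there were 1 member at FD22 relative to FD19, 8 at P1 relative to FD22 and 12 at P1 relative to FD19, against 3.68%, 5.14% and 11.5% of all genes. The medians of the members were −0.00, 0.02 and −0.01.

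Mrpl42 had the smallest p of the ratio changes. Its log2 ratios in the lysates were −1.02, −1.40 and −1.24 at FD19, −0.36, −0.90 and −0.88 at FD22, and 0.51, 0.35 and −0.26 at P1, so that no stages overlapped between FD19 and the others, and 2 of 3 newborn lysates were above 0. The change at P1 relative to FD19 was 1.42 ± 0.29 with a limma adjusted p of 0.0606, which misses the threshold. With the lysate as a block, the pairing that the design gives, the adjusted p was 0.0143 and this was the single member called. Over all other alternatives the adjusted p ranged from 0.0241 without FD22 replicate 3 to 0.34 without the arrays numbered 1. Next came Mrps18a (−0.83, adjusted p = 0.156), Mrpl34 (−1.22, 0.23) and Mrpl12 (−0.82, 0.244), all with lower ratios at P1 by the brightest probe set, while the dim probe set of Mrpl12 gave 0.17. At P1 relative to FD22 the smallest p were those of Mrpl12 (−0.88 ± 0.26, adjusted p = 0.51; 0.20 by its dim probe set), Mrpl42 (0.91), Mrpl47 (0.55) and Mrpl54 (−0.96). At FD22 relative to FD19 they were those of Mrps9 (−0.62 ± 0.20, adjusted p = 0.999; −0.06 by its other probe set), Mrpl44 (−0.42), Mrpl42 (0.50) and Mrpl33 (0.40).

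**Figure D4:**
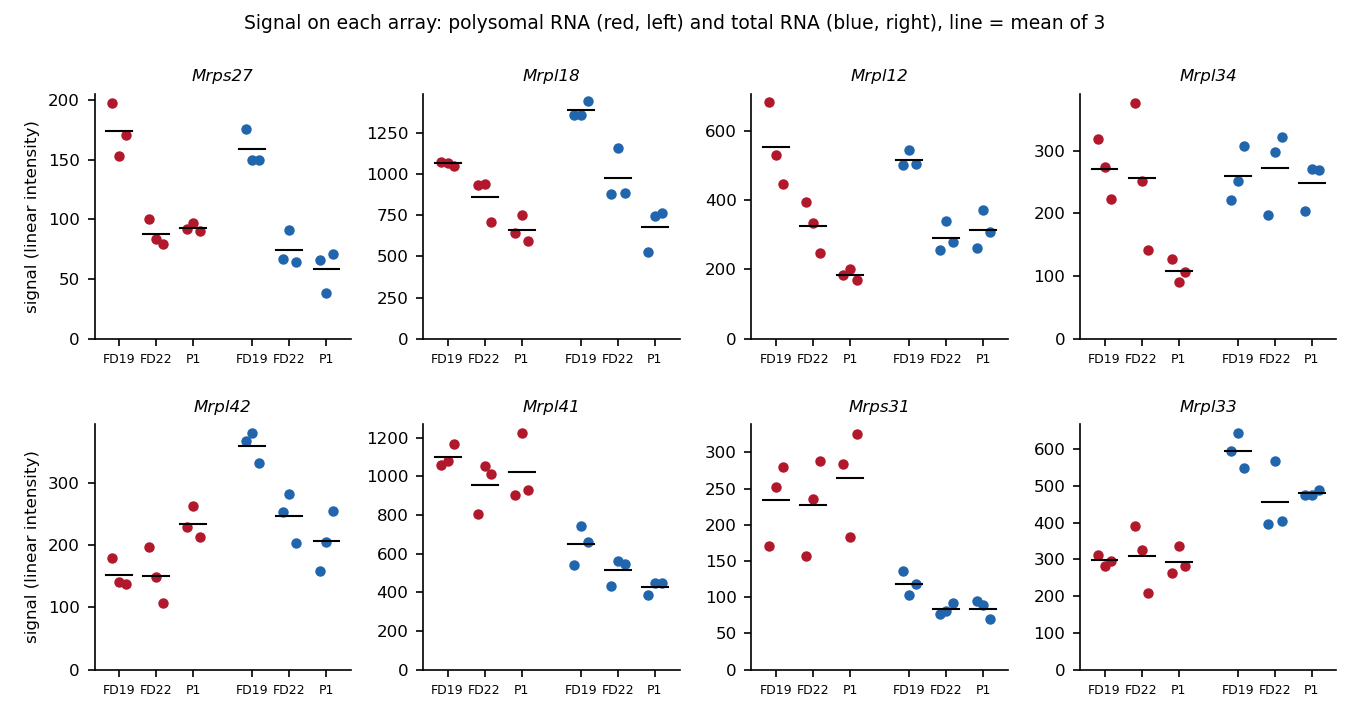
Linear signal of 8 members on each of 18 arrays, polysomal RNA in red (left) and total RNA in blue (right) at FD19, FD22 and P1, with a line at the mean of 3 arrays and the axis starting at 0. Mrps27 and Mrpl18 are lower after FD19 in both fractions, Mrpl12 and Mrpl34 have their lowest polysomal signals at P1, polysomal Mrpl42 is highest at P1, and Mrpl41 and Mrps31 lie above and Mrpl33 below their total RNA.

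The family was set beside those of the cytosolic ribosome and of oxidative phosphorylation, whose mitochondrial subunits its ribosomes make. In total RNA at P1 relative to FD19, 33 of 79 oxidative phosphorylation genes fell and 1 rose (median −0.40), and 5 of 41 cytosolic ribosomal protein genes fell and none rose (median −0.20). In polysomal RNA at P1 relative to FD22, none of the 79 oxidative phosphorylation genes rose and 10 fell (median −0.13). There 30 of 41 cytosolic ribosomal protein genes rose and none fell (median 0.50), where the members' median was −0.10. In the mean ratio 24 oxidative phosphorylation genes were higher and 29 lower (median −0.04), and 40 of 41 cytosolic ribosomal protein genes were lower and 1, Rps4y2, higher (median −1.09). Of the members, 39 of 73 were higher. These counts stand side by side, differences between families were not tested as such, and the length of the coding sequences was not taken into account. Of all genes 17.2% fell and 13.8% rose in the first comparison, and 5.8% fell and 4.74% rose in the second. In the mean ratio 25% were higher and 22.2% lower.

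The genes that serve mitochondrial translation were described from lists. The first list held translation factors, tRNA modification genes and related enzymes. In total RNA at FD22 relative to FD19, 4 of its 17 genes fell and none rose (median −0.38). They were Gfm1, an elongation factor (−0.65 ± 0.16, limma adjusted p = 0.00678), Tufm, the mitochondrial elongation factor Tu (−0.53), its exchange factor Tsfm (−0.39) and the tRNA modification gene Mto1 (−0.85). Of 18 aminoacyl-tRNA synthetase genes 3 fell (median −0.21), namely Yars2 (−0.88), Gars1 (−0.66) and Kars1 (−0.55), the last pair also serving the cytosol. Of 22 ribosome assembly genes the GTPases Gtpbp10 (−0.61) and Noa1 (−0.52) fell (median −0.16). Of 7 genes listed as mitochondrial ribosomal proteins with other symbols none was called by limma (median −0.29), and 2 had an unadjusted p under 0.05, both lower. This list also held Lactb and Oxa1l, whose proteins are not parts of the ribosome. Of 21 genes of mitochondrial transcription and its regulators 3 fell (median −0.28), Tfam, which packages mitochondrial DNA (−0.67 ± 0.13, adjusted p = 0.00147), the coactivator Pprc1 (−0.75) and Slirp (−0.85). No gene of these lists rose. Of all genes 10.4% were called lower and 9.68% higher in this comparison, and the lists were not tested against these shares.

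Over the whole interval, at P1 relative to FD19, 17.2% of all genes were called lower in total RNA and 13.8% higher. Of the first list, with the translation factors, 5 of 17 genes fell (median −0.43), led by Tufm (−0.81). Of the other lists 4 synthetases fell, 3 assembly genes fell and 1, Mpv17l2 (0.47), rose, and 4 transcription genes fell. Of the 7 genes on the other-symbol list Chchd1 (−0.78) and Gadd45gip1 (−0.72) fell. In the mean ratio 25% of all genes were higher and 22.2% lower. Of the 17 genes of the first list 9 were higher and 1 lower (median 0.31). Among them were Mtif2, the initiation factor, at 1.00 ± 0.17 (limma adjusted p = 9.36e-05), Mtfmt at 0.62 and the tRNA modification gene Pus1 at −0.36. Of the assembly genes 7 were higher and 2 lower, with Gtpbp10 at 0.85. Of the synthetases 6 were higher and 3 lower. Of the 7 genes on the other-symbol list Gadd45gip1 was higher (0.65) and Oxa1l (−0.54) and Chchd1 (−0.36) were lower. Of the transcription genes 6 were higher, among them Ssbp1 (1.09), Nrf1 (0.84) and Tfam (0.74), and 6 lower, among them Gabpb1 (−0.56), a GABP subunit.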

How the data were processed

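Signals were linear intensity values per probe set of the Affymetrix Rat Genome 230 2.0 array, as deposited by the authors, made with GCOS 1.4 per the submitters' processing notes. The algorithm is not given in the sources used here. Arrays had a common 2% trimmed mean, and no further scaling was applied. Because polysomal and total arrays were scaled alike, a ratio between them is relative. Of 31099 probe sets 57 controls were left out, and 21675 passed the filter (above 40.8, the 40th percentile, on at least 3 of 18 arrays). By the platform annotation 20826 probe sets had 1 gene, 436 several and 9780 none.

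Values were log2(signal + 5.5), computed from the deposited intensity values, where 5.5 is the 10th percentile, and so understate changes of dim genes. limma 3.58.1 in R 4.3.3 fitted 6 group means with a variance trend. All p-values were adjusted over the 21675 probe sets (Benjamini-Hochberg), with a threshold of 0.05. Lysates of separate litters were the replicates, and 3 arrays per group limit the precision. Arrays with the same number at 1 stage share a lysate by design, and their deviations correlated (r 0.186 to 0.488), so a fit with the lysate as a block was an alternative. Across stages all 3 correlations were over 0.1 for total RNA at P1 and FD19 (0.119 to 0.313) and for polysomal RNA at FD22 and FD19 (0.226 to 0.498). In the other pairs at least 1 was lower, down to −0.031 for total RNA at FD22 and FD19. Litters differ between stages, so a block on the replicate number there joins lysates that the labels do not link.

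The members and gene lists were chosen with earlier results of these data known. Genes were named by a rule: called members whose groups do not overlap, up to 8 in each direction per comparison (called members for the mean ratio and ratio changes), otherwise the 4 members of smallest p, the 3 brightest and 3 dimmest, Mrpl12, Mrps12 and Mrpl23, members with disagreeing probe sets, and up to 4 called genes of each other list. Positive exceptions, members called lower by mean ratio beyond the first 8, Mrpl20 and members called at all 3 stages were named after their values were seen. The fit was tested on simulated data. Tables were made with pandas 2.3.3 (numpy 2.4.6) in Python 3.11.15, and figures with matplotlib 3.10.9. Alternatives changed the added constant, filter, scaling, variance model, probe set rule, samples and block. Raw scanner files were not used here.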

Additional observations from a re-analysis of the deposited data

Results flagged for a closer look

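The ratio of Mrpl20, a counterpart of bacterial L20, lay on opposite sides of 0 at 2 stages. Its log2 polysomal to total ratios were −0.01, −0.33 and −0.60 in the P1 lysates and 0.50, 0.44 and 0.25 in the FD19 lysates, so every newborn lysate was below and every FD19 lysate above 0. The change at P1 relative to FD19 was −0.71 ± 0.25, and limma gave an adjusted p of 0.302, so it was not called. The sign of a single lysate's ratio depends on the scaling of the arrays.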

How the results depend on the processing

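Counts of members called, out of 73, are given with both directions added. Among 110 results for single named members, none that was called in the main fit or in an alternative changed sign between them. Medians of the members near 0 could change sign. That of total RNA at P1 relative to FD22 was −0.09, and 0.01 after centring on array medians. Without the 6 arrays numbered 1 the counts were 8 for total RNA at FD22 relative to FD19 (22 with all arrays), 12 for polysomal RNA at FD22 relative to FD19 (22), 3 for polysomal RNA at P1 relative to FD22 (6) and 23 for the ratio at P1 (37), and the mean ratio split into 32 higher and 17 lower (39 and 10). In that order, the shares of all genes called higher and lower in this fit were 6.99% and 6.36%, then 6.34% and 5.48%. They were 2.42% and 2.22% for polysomal RNA at P1 relative to FD22. For the ratio at P1 they were 8.9% and 6.74%, and for the mean ratio 23.6% and 21.7%. Fitting the compared groups alone gave 11 for polysomal RNA at FD22 relative to FD19, 0 for polysomal RNA at P1 relative to FD22 and 6 for the ratio at FD22 (25). Of all genes 7.64% were called higher and 7.29% lower in the first of these. The shares were 1.42% and 1.4% in the second, and 3.79% and 2.6% in the third. A filter at the 60th percentile gave 10 for polysomal RNA at P1 relative to FD22, against 6.64% of all genes higher and 7.97% lower. Quantile normalization gave 1 for total RNA at P1 relative to FD22 (0), against 2.67% of all genes higher and 2.3% lower. The replicate block gave 38 for polysomal RNA at FD22 relative to FD19, where it joins lysates of different litters (14.2% of all genes higher and 15% lower). It gave 1 for the ratio change at P1 relative to FD19 (0), against 0.25% and 0.975% of all genes, and moved no other count by over 1.5 times. The same 1, Mrpl42, was called with the 60th percentile filter, quantile normalization, the mean of probe sets and the compared groups alone. Apart from the smaller number of arrays in some of these fits, the cause was not tested.

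The share of all genes called also differed between the fits without single lysates. For total RNA at FD22 relative to FD19 it ranged from 6.48% to 10.3% lower. At P1 it ranged from 1.02% to 2.24% lower relative to FD22 and from 12.8% to 18.2% lower relative to FD19. In polysomal RNA the shares lower were 5.19% to 9.76% at FD22 relative to FD19. They were 3.27% to 6.51% at P1 relative to FD22 and 14.3% to 19.7% at P1 relative to FD19. Without single lysates the counts ranged from 10 to 22 for total RNA at FD22 relative to FD19, 0 to 1 at P1 relative to FD22 and 26 to 34 at P1 relative to FD19, and in polysomal RNA from 10 to 29, 1 to 9 and 28 to 39 for the same pairs. For the ratio they ranged from 16 to 31 at FD19, 9 to 24 at FD22, 21 to 38 at P1 and 44 to 50 in the mean, and for ratio changes from 0 to 0 at FD22 relative to FD19, 0 to 0 at P1 relative to FD22 and 0 to 1 at P1 relative to FD19. For the ratio the shares of all genes called higher were 5.12% to 13.8% at FD19, 4.31% to 9.9% at FD22 and 6% to 12.7% at P1. The shares lower were 3.81% to 10.6%, 2.4% to 7.32% and 4.11% to 9.22%. In the mean ratio they were 21.4% to 24.2% higher and 17.9% to 21.9% lower. Of 110 results for single named members, 73 stayed on their side of the threshold under every alternative. The 14 genes with several kept probe sets gave 182 comparisons, called or not. In 40 of these some but not all probe sets of the gene were called. In 9, all of Mrps27, Mrps2 or Mrpl40, a probe set was called while another had the other sign. A relation to protein length was not run, as no protein table was used here. Groups of 3 litters, unknown algorithm and no raw files limit these values.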
